A study of Mus musculus with 16 samples.

Results

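The 9 genes described here encode enzymes and a helper protein of the lipoxygenase and prostanoid pathways: Alox5, Alox5ap, Alox12, Alox15, Lta4h, Ltc4s, Ptgs1, Ptgs2 and Tbxas1. They were taken by symbol from the array's probe sets that are paired with 1 gene symbol, keeping for each gene the probe set with the highest mean. Exactly 1 such probe set was found for 8 of the 9 genes. Ptgs1 had none and has no value here. The 8 measured genes were among 16258 test units made from 28270 probe sets, and all 8 passed the filter on dim probe sets, with signal on 16 of 16 arrays above 3.74, which is the 30th percentile over the whole table. The genes were chosen from earlier results of these arrays, in which Alox5, Alox12 and Ptgs2 had been called in comparisons of the genotypes, so calls for them are a description and no independent support.

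These enzymes turn arachidonic acid, released from membranes by phospholipases, into short-lived lipid signals. Alox5, which works with its activating protein Alox5ap, makes leukotriene A4, and Lta4h and Ltc4s turn that into leukotriene B4, an attractant of neutrophils, and the cysteinyl leukotrienes, mediators of mast cells and eosinophils. Alox12 is the platelet-type lipoxygenase and Alox15 oxidises the same fatty acid in macrophages and eosinophils. The cyclooxygenases Ptgs1 and Ptgs2 start prostanoid synthesis, and Tbxas1 makes thromboxane A2, which activates platelets. In the fetal liver, the site of blood formation at midgestation, megakaryocytes and myeloid cells are the blood cells best known for these pathways.

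Messenger RNA was measured in single-cell suspensions of mouse fetal liver on 16 Affymetrix arrays, as log2 signal. Embryos carried both an ERG transgene and the GATA1s allele (ERG/GATA1s), the GATA1s allele without the transgene (labelled WT/GATA1s, called GATA1s below), the transgene without the allele (ERG Tg, called ERG below) or neither (WT), each at E14.5 and at E12.5. Every one of these 8 groups has a female-labelled and a male-labelled array. The study asked which genes ERG and the full-length and short forms of GATA1 activate or repress. GATA1 is a transcription factor of red cells and megakaryocytes, GATA1s is its shorter form, which lacks the start of the protein, and ERG is an ETS-family factor needed by blood stem cells and in megakaryocytes. The sources used here do not give the transgene's promoter or species, the GATA1s copy number in females, or how many embryos went into a sample. P-values therefore measure the spread between these samples, which may be technical, and precision is limited by having 2 arrays a group.

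The arrays had medians from 4.79 to 4.94. Fetal liver markers were present on every array: the mean signal of 10 erythroid genes was 9.76 to 10.76 and that of 9 hepatoblast and hepatocyte genes 8.25 to 11.03, against 3.94 to 4.32 for 6 lymphoid genes. Erg signal was 5.66 to 6.01 in ERG/GATA1s, 5.32 to 5.80 in GATA1s, 5.58 to 5.88 in ERG and 5.35 to 5.53 in WT. Gata1 signal was 9.22 to 10.02 over the 16 arrays. Neither probe set is known to measure the altered allele, so neither checks a label. Xist and Y-linked genes both went against the labelled sex on 3 arrays, the male-labelled ones of E12.5 GATA1s and E12.5 ERG/GATA1s and the female-labelled one of E14.5 ERG/GATA1s. Of these, the male-labelled E12.5 ERG/GATA1s array differed from its partner in Ltc4s (5.06 against 4.56) and Lta4h (7.03 against 7.45). The E12.5 WT arrays lay further apart than that pair for Ptgs2 (5.77 and 4.52) and Tbxas1 (5.87 and 5.01). On 2 further male-labelled arrays, of E14.5 ERG and E12.5 WT, Y-linked genes were on (means of 5.27 and 4.95) while Xist was also high (10.03 and 9.35). By these markers all 4 E12.5 arrays with the GATA1s allele read as female (Xist 9.51 to 10.08, Y-linked means 3.60 to 3.92). Both E14.5 ERG/GATA1s arrays read as male (Xist 4.22 and 4.19, Y-linked means 6.50 and 6.38). Sex by markers is thus partly confounded with genotype and with stage, and a labelled sex term does not remove this. The GATA1s copy number in females is not given. A difference in it between these groups therefore cannot be told apart from genotype or stage. With a Y-linked level in its place 17 of the 21 member calls held. Each call of the 8 genes below that uses one of the 3 sex-discordant arrays is given without them too, in which case the affected group rests on 1 array and its spread is taken from the other groups.

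Upstream sequence is shown for the 4 members with a window whose signal moved with the GATA1s allele or the transgene, because GATA1 and ERG bind DNA through GATA and ETS motifs. Each window is the 250 bases before the annotated start in RefSeq, build GRCm38.p6, read 5′ to 3′ on the gene's strand. Capitals mark motif letters. The GATA motif was searched on both strands in 4 spellings, namely AGATAA, then AGATAG, then TGATAA, then also TGATAG. The ETS motif was searched likewise in 2 spellings, of which AGGAAG is one while CGGAAG is the other. No GATA letters overlapped ETS letters in these windows.
Alox5, minus strand, chr6:116461179-116461428: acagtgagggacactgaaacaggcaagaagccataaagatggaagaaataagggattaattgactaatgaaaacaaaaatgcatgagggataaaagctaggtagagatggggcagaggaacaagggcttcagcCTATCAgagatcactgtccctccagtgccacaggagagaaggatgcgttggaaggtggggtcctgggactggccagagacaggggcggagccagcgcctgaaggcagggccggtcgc
Alox12, minus strand, chr11:70255371-70255620: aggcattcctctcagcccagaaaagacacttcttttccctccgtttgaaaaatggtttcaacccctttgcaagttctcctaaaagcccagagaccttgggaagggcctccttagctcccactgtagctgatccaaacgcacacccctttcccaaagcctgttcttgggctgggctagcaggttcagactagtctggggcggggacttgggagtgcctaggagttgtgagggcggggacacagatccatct
Ptgs2, plus strand, chr1:150099781-150100030: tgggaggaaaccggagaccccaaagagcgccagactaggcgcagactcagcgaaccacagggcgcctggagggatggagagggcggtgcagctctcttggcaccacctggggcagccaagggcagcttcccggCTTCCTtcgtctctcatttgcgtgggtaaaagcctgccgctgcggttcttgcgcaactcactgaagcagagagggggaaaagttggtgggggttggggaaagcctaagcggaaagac
Tbxas1, plus strand, chr6:38918736-38918985: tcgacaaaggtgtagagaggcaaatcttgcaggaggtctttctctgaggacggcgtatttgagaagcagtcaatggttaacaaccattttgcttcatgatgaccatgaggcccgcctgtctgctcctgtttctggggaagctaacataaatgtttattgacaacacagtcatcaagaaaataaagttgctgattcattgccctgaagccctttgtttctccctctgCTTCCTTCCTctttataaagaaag
The Alox5 window held 1 GATA match, TGATAG on the antisense strand, at position -117 from the start, and no ETS match. The Ptgs2 window held 1 ETS match, AGGAAG on the antisense strand, also at -117. In the Tbxas1 window 2 antisense AGGAAG matches overlapped, at -24 and -20, and the Alox12 window held neither motif. Over 32851 promoter windows of the same length, 26.5% held a GATA motif and 39.2% an ETS motif, so single matches are common. Windows were found for 7 of the 9 members; of the other 3, Ltc4s and Ptgs1 held 1 ETS match each and Lta4h none. A match is a description of letters and was not tested for binding.

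On the arrays with the GATA1s allele, Alox5ap, Alox12, Ptgs2 and Tbxas1 lay higher than on the arrays without it at both stages. None of the 4 was called in E14.5 GATA1s against WT. At E14.5, 4 of the 8 measured genes, these same 4, lay higher on all 4 carrier arrays (ERG/GATA1s and GATA1s) than on all 4 arrays without the allele (ERG and WT), and 5.86% of all test units did so. At E12.5, 6 of 8 did, Alox5 and Ltc4s being added, against 4.98% of all units. At both stages 4 of 8 did, against 1.29% of all units. Some margins were narrow. For Tbxas1 at E14.5 the lowest carrier array had 6.27 and the highest other array 6.22. For Alox12 at E12.5 these were 7.45 and 7.35. Alox5 followed a different order at E14.5, where its highest signal was in ERG.

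**Figure D1:**
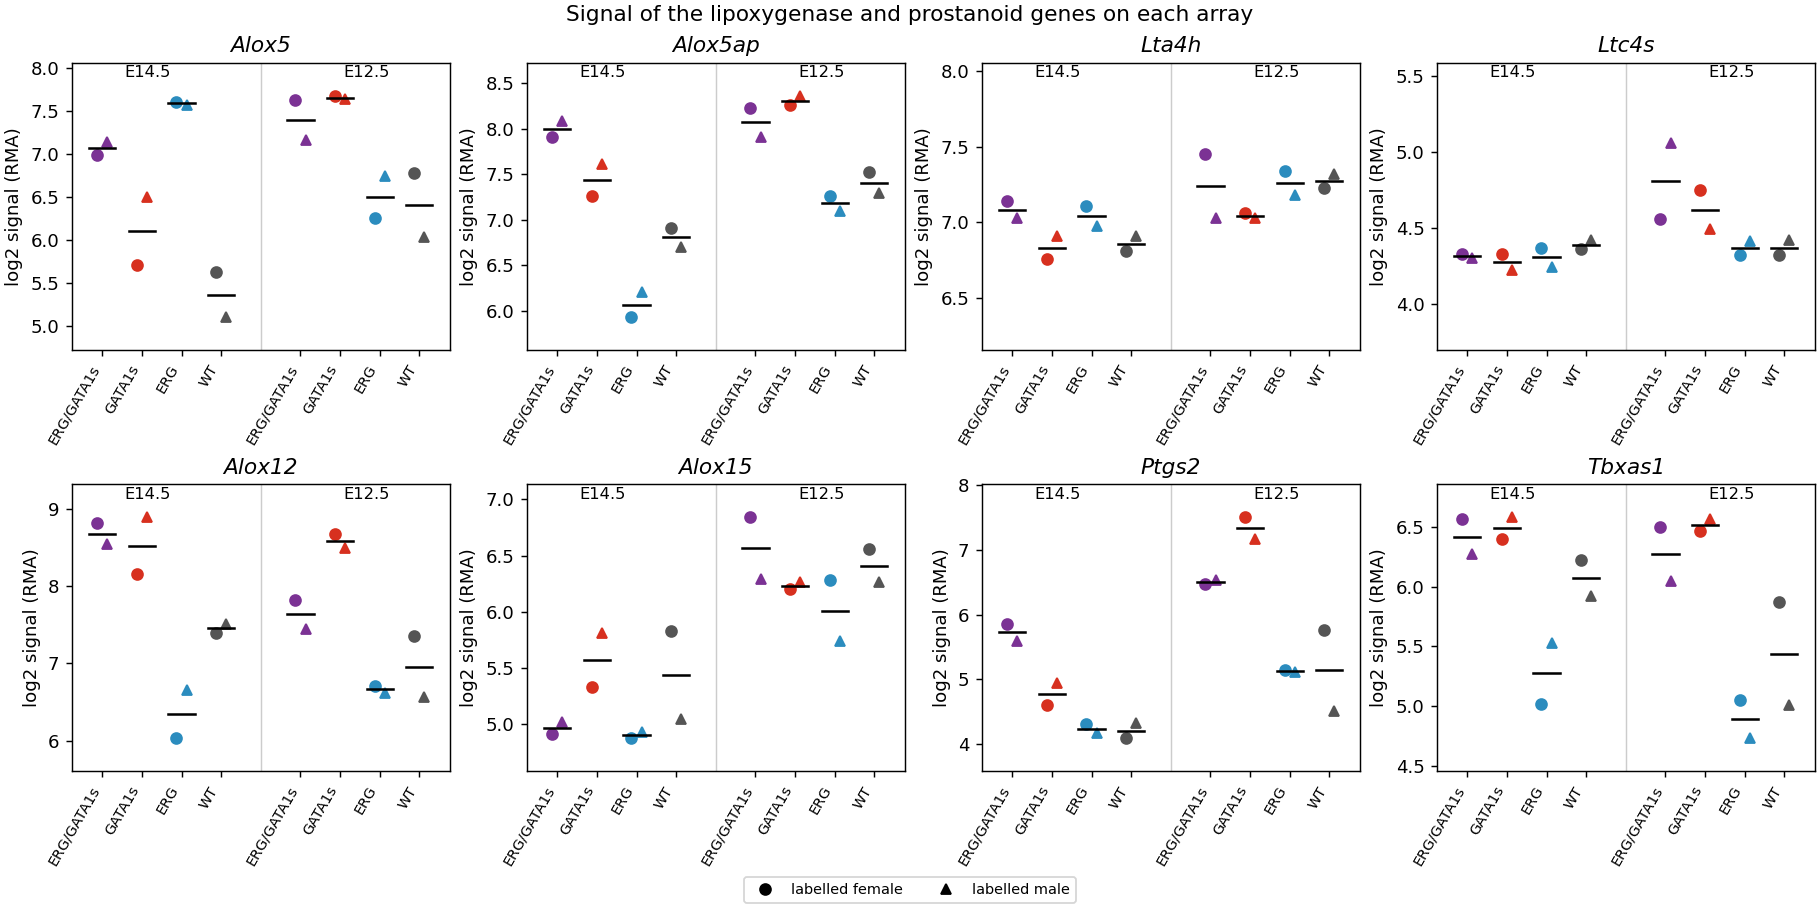
Log2 signal (vertical axis, RMA) of the 8 measured genes on each of the 16 arrays, by genotype and stage; circles are arrays labelled female, triangles arrays labelled male and bars group means of 2 arrays. Alox5ap, Alox12, Ptgs2 and Tbxas1 are higher in ERG/GATA1s and GATA1s than in ERG and WT within each stage, Alox5 is highest at E14.5 in ERG (7.60 and 7.57), and Lta4h spans 6.76 to 7.45 over all arrays.

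Tests used limma over all 16 arrays with labelled sex as a term, and a call is an adjusted p under 0.05 over the 16258 units. In E14.5 ERG/GATA1s against WT, 4 of 8 genes rose (Alox5, Alox5ap, Alox12 and Ptgs2) and none fell, where 9.16% of all units were called and 4.47% were called higher. In E14.5 ERG/GATA1s against ERG, 4 rose (Alox5ap, Alox12, Ptgs2 and Tbxas1) and none fell, where 7.34% of all units were called and 3.6% higher. These comparisons share the ERG/GATA1s arrays. In E14.5 ERG against WT, Alox5 rose and Alox5ap fell, where 1.19% of all units were called higher, 0.504% lower and 1.69% in either direction. In E14.5 GATA1s against WT no member was called by limma, where 1.07% of all units were, and 3 of the 8 had an unadjusted p under 0.05. Nor was any called in E14.5 ERG/GATA1s against GATA1s, where 1.63% of all units were, with 4 of the 8 at an unadjusted p under 0.05.

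At E12.5, GATA1s embryos against WT had 4 genes that rose (Alox5ap, Alox12, Ptgs2 and Tbxas1) and none that fell, where 0.824% of all units were called higher and 1.33% in either direction. In E12.5 ERG/GATA1s against ERG 3 rose (Alox5ap, Ptgs2 and Tbxas1), where 0.474% of all units were called higher and 1.05% in either direction. In E12.5 ERG/GATA1s against WT no member was called, where 0.00615% of all units were, 1 in number, although 2564 units, 6 of the 8 members among them, had an unadjusted p under 0.05. By limma, E12.5 ERG against WT called 0% of units, with 666 at an unadjusted p under 0.05 (1 of them a member), and E12.5 ERG/GATA1s against GATA1s 0%, with 999 (2 of them members). In E14.5 against E12.5 WT, 4 members fell (Alox5, Alox5ap, Alox15 and Ptgs2) and none rose, where 6.75% of all units fell and 18.2% were called.

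Without the 2 arrays that carried both Xist and Y-linked signal, a setting chosen after seeing the data, 13 of the 21 member calls held. The Alox5 rise in E14.5 ERG against WT was then 2.28 (limma, adjusted p = 0.0101). In E12.5 GATA1s against WT all 4 calls were lost (Alox5ap, Alox12, Ptgs2 and Tbxas1, adjusted p = 0.466, 0.331, 0.221 and 0.501). Lost too were the Alox5ap calls in E12.5 ERG/GATA1s against ERG (0.0606), E14.5 ERG against WT (0.121) and E14.5 against E12.5 WT (0.108), and the Alox15 call between the stages (0.116). In E14.5 ERG against WT, Alox12 (-1.43, adjusted p = 0.0394) and Tbxas1 (-1.14, adjusted p = 0.037) passed the threshold in that setting, and Ptgs2 did in E14.5 ERG/GATA1s against GATA1s (0.94, adjusted p = 0.0299).

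The median log2 change of the 8 members was 0.77 in E14.5 ERG/GATA1s against WT, 0.60 against ERG, and 0.50 in E14.5 GATA1s against WT. At E12.5 it was 0.99 in GATA1s against WT and 0.89 in ERG/GATA1s against ERG. The median of all units lay between -0.02 and 0.01 in these 5 comparisons. For E14.5 ERG against WT the members' median was -0.31, beside -0.01 for all units.

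**Figure D2:**
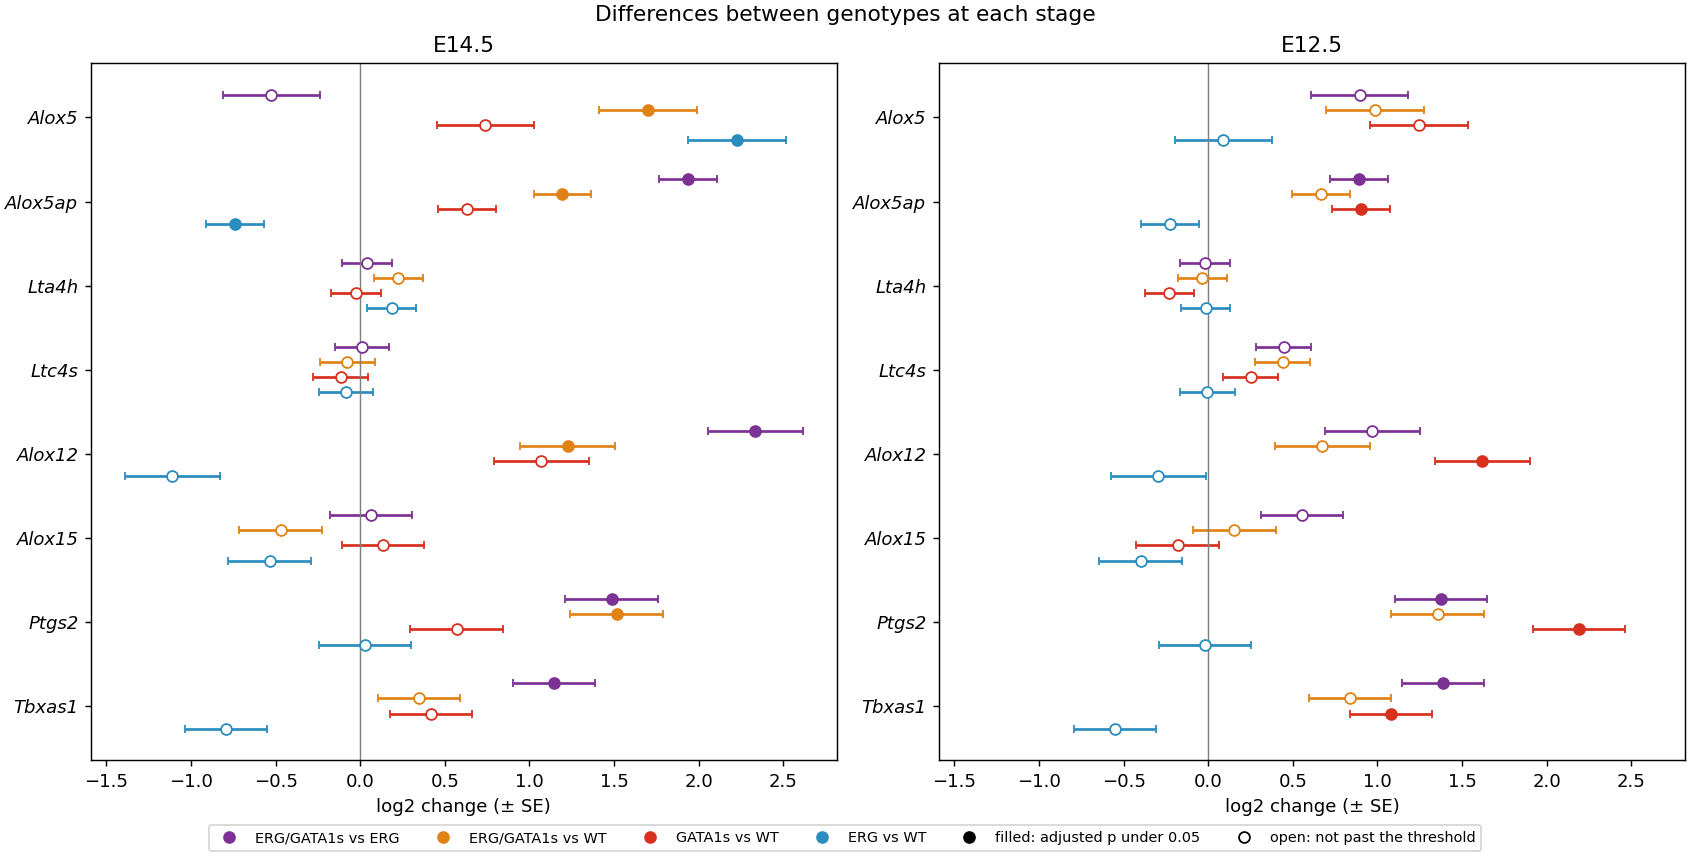
Log2 change (horizontal axis) with its SE from limma for 8 genes in 4 comparisons at each stage; filled points have an adjusted p under 0.05. At E14.5 the change of Alox5 in ERG against WT (2.23) lies far to the right of those of Alox5ap (-0.74), Alox12 (-1.11) and Tbxas1 (-0.80), and the points of Lta4h and Ltc4s stay near 0.

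Alox5, the enzyme that starts leukotriene synthesis, was highest in ERG at E14.5 and had its highest E12.5 signal in the GATA1s groups. At E14.5 its signal was 6.98 and 7.14 in ERG/GATA1s (female-labelled array first here and below), 5.70 and 6.50 in GATA1s, 7.60 and 7.57 in ERG, and 5.62 and 5.10 in WT. Both arrays with the transgene alone lay above all others of that stage, and the ERG/GATA1s arrays came next, above GATA1s and WT. At E12.5 Alox5 had 7.62 and 7.16 in ERG/GATA1s, 7.67 and 7.63 in GATA1s, 6.25 and 6.74 in ERG, and 6.78 and 6.03 in WT. There the carriers of the allele lay above the rest, and the ERG and WT arrays overlapped.

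Against WT at E14.5, Alox5 rose in ERG by 2.23 ± 0.29 (SE; limma, adjusted p = 0.00134), which is 4.67-fold, higher in both pairs of arrays of the same labelled sex. It rose in ERG/GATA1s by 1.70 ± 0.29, 3.25-fold (adjusted p = 0.00224). Both calls held without any 1 array. Without the 3 sex-discordant arrays the change in ERG/GATA1s was 1.78 with an adjusted p of 0.0714. The E14.5 GATA1s value was 0.74 ± 0.29 (adjusted p = 0.252), and ERG/GATA1s against ERG gave -0.53 ± 0.29 (adjusted p = 0.338).

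For Alox5 at E12.5, GATA1s against WT gave 1.25 ± 0.29 and missed the threshold (adjusted p = 0.0527), and ERG against WT gave 0.09 ± 0.29 (adjusted p = 0.988). The ERG effect was 2.14 ± 0.41 larger at E14.5 than at E12.5, a difference that also missed the threshold (limma, adjusted p = 0.0513; 0.228% of all units passed). Leaving out 1 array at a time put the adjusted p of that difference between 0.0224 and 0.293. In WT, Alox5 fell to a mean of 5.36 at E14.5, against 6.41 at E12.5, a change of -1.05 ± 0.29 (adjusted p = 0.023). This fall lost its call without the female-labelled E12.5 WT array or the male-labelled E14.5 WT array (adjusted p up to 0.22, changes of -1.45 to -0.64 over all arrays left out) and without the 3 sex-discordant arrays (adjusted p = 0.0593). In order of mean signal the 8 groups ran E12.5 GATA1s, E14.5 ERG, E12.5 ERG/GATA1s, E14.5 ERG/GATA1s, E12.5 ERG, E12.5 WT, E14.5 GATA1s and E14.5 WT, and 5 of the 7 neighbouring pairs differed by no more than the residual SD of 0.372.

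Alox5ap, the membrane protein that presents arachidonic acid to Alox5, was within each stage higher where the GATA1s allele was present and lowest with the transgene alone. At E14.5 its signal was 7.91 and 8.09 in ERG/GATA1s, 7.26 and 7.61 in GATA1s, 5.93 and 6.20 in ERG, and 6.91 and 6.70 in WT. No group overlapped another at this stage. The E12.5 signal was 8.23 and 7.91 in ERG/GATA1s, 8.26 and 8.36 in GATA1s, 7.26 and 7.10 in ERG, and 7.52 and 7.29 in WT. The 4 carrier arrays again lay above the other 4.

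Alox5ap rose in E14.5 ERG/GATA1s by 1.94 ± 0.17 against ERG, 3.82-fold (limma, adjusted p = 4.44e-05), and by 1.20 ± 0.17 against WT, 2.29-fold (adjusted p = 0.000713). Both calls held without any 1 array and without the 3 sex-discordant arrays (adjusted p = 0.00751 and 0.0304). In E14.5 ERG against WT it fell by 0.74 on the log2 scale (SE 0.17, adjusted p = 0.0459), a call that held on leaving out 5 of the 16 arrays and was lost on leaving out any 1 of the other 11. These 11 were all the E12.5 WT, ERG and GATA1s arrays, both E14.5 ERG and both E14.5 ERG/GATA1s arrays, and the female-labelled E14.5 WT array. The adjusted p then reached 0.775, with changes of -0.90 to -0.58. In E14.5 GATA1s against WT it was 0.63 ± 0.17 (adjusted p = 0.1).

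At E12.5, Alox5ap rose by 0.91 ± 0.17 in GATA1s against WT (1.87-fold, limma, adjusted p = 0.0223) and by 0.89 ± 0.17 in ERG/GATA1s against ERG (1.85-fold, adjusted p = 0.0318). Neither call held without the 3 sex-discordant arrays, where the changes were 0.86 and 1.05 (adjusted p = 0.175 and 0.274). The call against WT was also lost without the male-labelled E12.5 WT array or either GATA1s array (adjusted p up to 0.338). That against ERG was lost without either E12.5 ERG array, either E12.5 GATA1s array or the male-labelled ERG/GATA1s array (up to 0.202). In WT, Alox5ap fell to a mean of 6.81 at E14.5, against 7.41 at E12.5, a change of -0.60 ± 0.17 (adjusted p = 0.0271). That call was lost without either E12.5 WT array or the male-labelled E14.5 WT array (up to 0.172). The effect of ERG at E14.5 was 1.31 ± 0.24 more positive with the GATA1s allele than without it, which missed the threshold (adjusted p = 0.0796; 0.0984% of all units passed).

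Alox5 and Alox5ap thus differed in direction in E14.5 ERG embryos, where Alox5 was at its second highest group mean and Alox5ap at its lowest. Their Pearson r over the 16 arrays, which share 4 genotypes and 2 stages, was 0.30. Alox5 correlated more with Ptgs2 (0.61), and Alox5ap with Ptgs2 (0.86) and Alox12 (0.75).

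**Figure D3:**
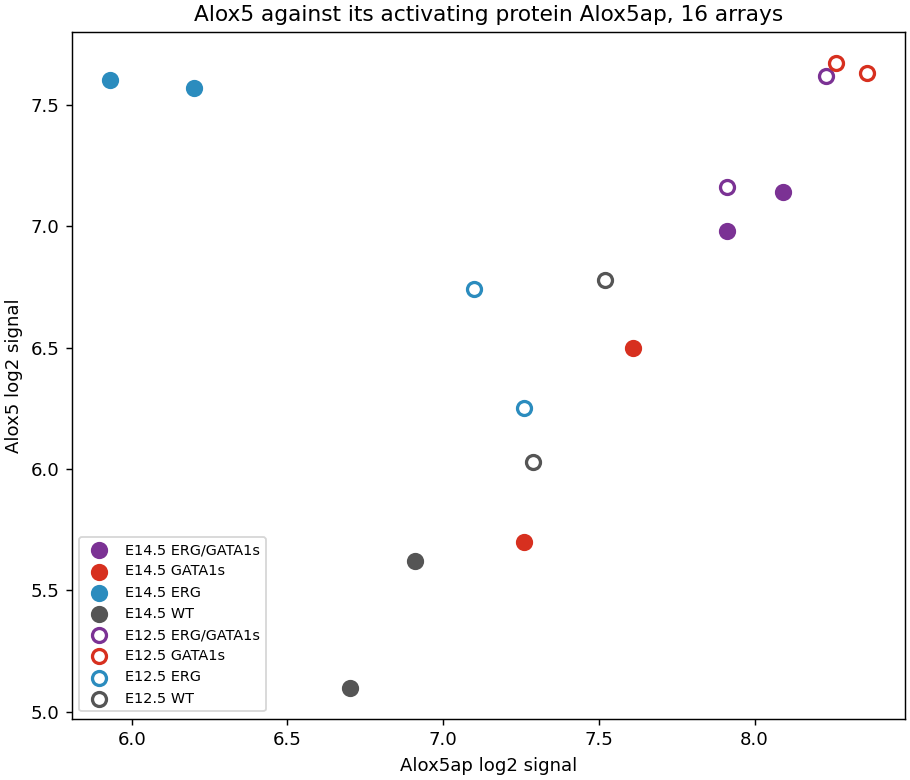
Alox5 log2 signal (vertical axis) against Alox5ap log2 signal (horizontal axis) on the 16 arrays; filled points are E14.5 and open points E12.5, coloured by genotype. The E14.5 ERG arrays stand apart at the upper left, with Alox5 at 7.60 and 7.57 and Alox5ap at 5.93 and 6.20, while the other 14 run from lower left to upper right.

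The enzymes that act after Alox5 were close to level. Lta4h, which makes leukotriene B4, had 7.14 and 7.03 in E14.5 ERG/GATA1s, 6.76 and 6.91 in GATA1s, 7.11 and 6.98 in ERG, and 6.81 and 6.91 in WT. At E12.5 Lta4h had 7.45 and 7.03 in ERG/GATA1s, 7.06 and 7.03 in GATA1s, 7.34 and 7.18 in ERG, and 7.23 and 7.32 in WT. All groups of a stage lay within 0.42 of one another on every array, and its changes ran from -0.42 to 0.25 over the 15 comparisons (smallest limma adjusted p 0.0643, for E14.5 against E12.5 in WT). Ltc4s, which makes leukotriene C4, was dim, with 4.22 to 4.42 on the 8 E14.5 arrays. At E12.5 it had 4.56 and 5.06 in ERG/GATA1s, 4.75 and 4.49 in GATA1s, 4.32 and 4.41 in ERG, and 4.32 and 4.42 in WT, so that the carriers lay above the others. Its largest change was 0.45 ± 0.16 (smallest adjusted p 0.19), in E12.5 ERG/GATA1s against ERG. That value was 0.71 without the female-labelled and 0.17 without the male-labelled ERG/GATA1s array, and was 0.20 without the 3 sex-discordant arrays.

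Alox12, the lipoxygenase of platelets, was higher in GATA1s carriers than on the other arrays of the same stage. At E14.5 its signal was 8.82 and 8.54 in ERG/GATA1s, 8.16 and 8.89 in GATA1s, 6.03 and 6.66 in ERG, and 7.40 and 7.51 in WT. The carriers overlapped one another and lay above WT, and the ERG arrays were the lowest. At E12.5 Alox12 had 7.82 and 7.45 in ERG/GATA1s, 8.67 and 8.49 in GATA1s, 6.71 and 6.62 in ERG, and 7.35 and 6.57 in WT. The GATA1s arrays were the highest of that stage, and ERG and WT overlapped.

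Alox12 rose in E14.5 ERG/GATA1s by 2.34 ± 0.28 against ERG, 5.05-fold (limma, adjusted p = 0.000266), a call that held without any 1 array and without the 3 sex-discordant arrays (2.14, adjusted p = 0.0416). Against WT it rose by 1.23 ± 0.28, 2.34-fold (adjusted p = 0.0137), and that call was lost without the female-labelled E14.5 WT array or either ERG/GATA1s array (up to 0.146) and without the 3 arrays (1.03, adjusted p = 0.239). The single alleles gave 1.07 ± 0.28 in GATA1s (adjusted p = 0.0863) and -1.11 ± 0.28 in ERG (adjusted p = 0.0676) against WT, neither past the threshold, and leaving out the male-labelled GATA1s or the female-labelled ERG array moved them to 0.64 and -0.73. At E12.5 it rose by 1.62 ± 0.28 in GATA1s against WT, 3.07-fold (adjusted p = 0.0194), which was lost without the male-labelled E12.5 WT array or either GATA1s array (up to 0.314) and without the 3 arrays (1.77, adjusted p = 0.173). ERG/GATA1s against WT at E12.5 was 0.68 ± 0.28 (adjusted p = 0.275).

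Alox15 differed between the stages and was not called between genotypes. At E14.5 its signal was 4.91 and 5.02 in ERG/GATA1s, 5.33 and 5.81 in GATA1s, 4.87 and 4.93 in ERG, and 5.83 and 5.04 in WT. The E12.5 arrays had 6.84 and 6.29 in ERG/GATA1s, 6.20 and 6.26 in GATA1s, 6.28 and 5.74 in ERG, and 6.56 and 6.26 in WT. Within each genotype both E14.5 arrays lay below both E12.5 arrays. In WT, the only genotype in which the stages were tested, it fell by 0.98 on the log2 scale (SE 0.24, limma, adjusted p = 0.0143), to a mean of 5.44 at E14.5, against 6.41 at E12.5. This was lost without either E12.5 WT array or the male-labelled E14.5 WT array (up to 0.143), with changes of -1.32 to -0.63 over all arrays left out. In the same comparison 7 of 7 tested mast cell, basophil and eosinophil genes were lower, 3 of them called, and 12 of 12 macrophage genes were higher, 10 of them called. Of all units 18.2% were called there in either direction. The part of these cells in the Alox15 result was not tested.

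Ptgs2, the inducible cyclooxygenase, had the widest range of the 8 genes: its group means spanned 3.12 on the log2 scale, or 8.72-fold. At E14.5 its signal was 5.85 and 5.60 in ERG/GATA1s, 4.61 and 4.95 in GATA1s, 4.31 and 4.17 in ERG, and 4.09 and 4.33 in WT. Carriers lay above the others, ERG/GATA1s highest, and ERG and WT overlapped. At E12.5 Ptgs2 had 6.47 and 6.53 in ERG/GATA1s, 7.50 and 7.17 in GATA1s, 5.14 and 5.11 in ERG, and 5.77 and 4.52 in WT. Here GATA1s was highest, above ERG/GATA1s.

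Ptgs2 rose in E14.5 ERG/GATA1s by 1.52 ± 0.27 against WT, 2.86-fold (limma, adjusted p = 0.00327), and by 1.49 ± 0.27 against ERG, 2.80-fold (adjusted p = 0.00494). The call against WT held without any 1 array, that against ERG was lost without the female-labelled ERG/GATA1s array (adjusted p = 0.0542), and neither held without the 3 sex-discordant arrays (1.47 and 1.44, adjusted p = 0.111 and 0.123). At E12.5 it rose by 2.19 ± 0.27 in GATA1s against WT, 4.56-fold (adjusted p = 0.00651), and by 1.38 ± 0.27 in ERG/GATA1s against ERG, 2.59-fold (adjusted p = 0.0347). The first was lost without the male-labelled E12.5 WT array or either GATA1s array (up to 0.137) and without the 3 arrays (2.27, adjusted p = 0.173). The second was lost without any 1 of 9 arrays (up to 0.242) and without the 3 (1.26, adjusted p = 0.433). These 9 were both E12.5 ERG, both E12.5 GATA1s, both E14.5 ERG and both E14.5 ERG/GATA1s arrays and the male-labelled E12.5 ERG/GATA1s array.

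At E14.5 the single alleles gave Ptgs2 values of 0.57 ± 0.27 in GATA1s and 0.03 ± 0.27 in ERG against WT (limma, adjusted p = 0.384 and 0.996). The effect of GATA1s was 1.62 ± 0.39 smaller at E14.5 than at E12.5, a difference of -1.62 that missed the threshold (adjusted p = 0.107; 0.351% of all units passed). In WT it fell to a mean of 4.21 at E14.5, against 5.15 at E12.5 (a change of -0.94 ± 0.27, adjusted p = 0.0298), a call lost without the female-labelled WT array of either stage (up to 0.355), with changes of -1.55 to -0.32 over all arrays left out, and without the 3 arrays (adjusted p = 0.0757).

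Tbxas1, thromboxane synthase, had its lowest group mean at each stage with the transgene alone. At E14.5 its signal was 6.57 and 6.27 in ERG/GATA1s, 6.40 and 6.58 in GATA1s, 5.02 and 5.53 in ERG, and 6.22 and 5.92 in WT. The carriers overlapped one another and lay just above WT. At E12.5 Tbxas1 had 6.50 and 6.05 in ERG/GATA1s, 6.47 and 6.57 in GATA1s, 5.05 and 4.73 in ERG, and 5.87 and 5.01 in WT. The WT arrays lay on either side of the higher ERG array.

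Tbxas1 rose in ERG/GATA1s against ERG at E14.5 by 1.15 ± 0.24, 2.21-fold (limma, adjusted p = 0.0116), and at E12.5 by 1.39 ± 0.24, 2.61-fold (adjusted p = 0.0295). It also rose in E12.5 GATA1s against WT, by 1.08 ± 0.24, 2.11-fold (adjusted p = 0.0458). Against WT at E14.5 it was 0.35 ± 0.24 in ERG/GATA1s and -0.80 ± 0.24 in ERG (adjusted p = 0.49 and 0.157), neither past the threshold. On leaving out 1 array the ERG value ran from -1.19, without the male-labelled ERG array, to -0.40, without the female-labelled one. None of the 3 calls held without the 3 sex-discordant arrays (1.07, 1.53 and 0.95, adjusted p = 0.161, 0.274 and 0.234). The E14.5 call was also lost without the female-labelled ERG array or either ERG/GATA1s array (up to 0.175), with changes of 0.75 to 1.54. At E12.5 the call against ERG was lost without either ERG array or the male-labelled ERG/GATA1s array (up to 0.152), and that against WT without the male-labelled WT array, either GATA1s array or either E14.5 ERG/GATA1s array (up to 0.526), with changes of 0.69 to 1.47.

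Differences between effects were tested for every member and none passed by limma, in the GATA1s effect between stages (0.351% of all units, 1 member at an unadjusted p under 0.05), the ERG effect between stages (0.228%, 1 member), or the interaction of the alleles at E12.5 (0%, with 963 units and 0 members at an unadjusted p under 0.05) and at E14.5 (0.0984%, 4 members). Effects called at one stage or against one genotype are therefore not shown to differ from those that were not.

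The genes whose signal followed each member most closely over the 16 arrays, by Pearson r, are given as a description, since all points share the same arrays, genotypes and stages. For Alox5 they were Ripor2 (0.948), Stk10, Rsu1, Treml2 and Gata2 (0.926), the last a GATA factor of stem and progenitor cells. Alox5ap was followed by Plcg2 (0.974), Laptm5, Mrvi1, Fxyd5 and Gmfg (0.968). The genes most like Alox12 were Pde3a (0.98), Slc6a4, Trpc6, Pf4 (0.976) and Hacd4, of which Slc6a4 is the serotonin transporter and Pf4 a chemokine of platelet granules. For Tbxas1 they were Trpc6 (0.912), Slc6a4, Alox12 itself (0.908), Stx11 and Pik3ap1. Alox15 was followed by H3c4 (0.954), Dach1, Satb1, H2bc8 and Cd33, and Ptgs2 by Irak3 (0.958), Inf2, Slco4a1, Dusp4 and Fosl1.

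Other genes of the pathway moved in both directions. Of 54 listed genes 46 were tested, and at E14.5 ERG/GATA1s against WT had 4 called higher and 3 lower (15.2%, beside 9.16% of all units), with a median change of 0.04 beside -0.02 for all units. Against ERG, 4 were higher and 1 lower (10.9%, beside 7.34%; median 0.13), and ERG/GATA1s against GATA1s had 1 higher and 1 lower (4.35%, beside 1.63%). E14.5 ERG against WT had 1 higher and 2 lower (6.52%, beside 1.69%; median -0.08). E12.5 ERG/GATA1s against ERG had 1 higher (2.17%, beside 1.05%), Cyp4f18 (0.70 ± 0.14, limma, adjusted p = 0.0347), which inactivates leukotriene B4, a call lost without any 1 of 7 arrays (up to 0.229; both E12.5 ERG, both E12.5 GATA1s, the male-labelled E12.5 ERG/GATA1s and both E14.5 ERG/GATA1s arrays). In WT, 6 were higher and 2 lower at E14.5 than at E12.5, and this share of 17.4% was no higher than the 18.2% of all units. None was called by limma in the other comparisons, among them GATA1s against WT at E14.5 and at E12.5, with 9 and 12 of the 46 at an unadjusted p under 0.05. Of the 26 calls in these genes, none changed sign under the alternatives, 6 held without any 1 array, 15 without the 2 arrays of mixed sex markers, 11 without the 3 sex-discordant arrays and 5 both without any 1 array and without those 3: Pla2g4c and Ptgr1 in E14.5 ERG/GATA1s against WT, and Hpgd, Ptgr1 and Mgst1 between the stages in WT.

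Among receptors, Tbxa2r, which senses thromboxane, had 6.24 and 6.26 in E14.5 ERG/GATA1s, 5.81 and 6.31 in GATA1s, 5.21 and 5.27 in ERG, and 5.26 and 5.64 in WT. It rose in ERG/GATA1s by 1.01 ± 0.21 against ERG (limma, adjusted p = 0.0117) and by 0.80 ± 0.21 against WT (adjusted p = 0.0313). Ptger3, a prostaglandin E2 receptor, rose in E14.5 ERG/GATA1s against WT by 1.25 ± 0.25 (adjusted p = 0.00677), and Cysltr1, a cysteinyl leukotriene receptor, rose against ERG by 0.74 ± 0.15 (adjusted p = 0.0104). Cysltr1 was dim, with 4.37 and 4.52 in ERG/GATA1s and 3.84 and 3.57 in ERG, where the filter level was 3.74. The Tbxa2r calls were lost without either ERG/GATA1s array, either ERG array (adjusted p up to 0.11 against ERG) or the female-labelled WT array (up to 0.218 against WT). That of Ptger3 was lost without the female-labelled array of ERG/GATA1s or WT (up to 0.106), and that of Cysltr1 without the male-labelled array of ERG/GATA1s or ERG (up to 0.153). Without the 3 sex-discordant arrays the Cysltr1 call alone held among these 4 (adjusted p = 0.0401).

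Pla2g4a, the cytosolic phospholipase that frees arachidonic acid, had 7.24 and 7.26 in E14.5 ERG/GATA1s, against 6.44 and 6.32 in ERG (0.87 ± 0.24, limma, adjusted p = 0.0421). Its relative Pla2g4c went the other way. Pla2g4c had 4.42 and 4.27 in E14.5 ERG/GATA1s, 5.58 and 5.12 in GATA1s, 5.42 and 5.80 in ERG, and 6.46 and 5.90 in WT, and fell in ERG/GATA1s against WT (-1.84 ± 0.21, adjusted p = 0.000192), ERG (-1.27, adjusted p = 0.00292) and GATA1s (-1.01, adjusted p = 0.0307). The ERG/GATA1s arrays were below all others of the stage. Cotl1, an actin-binding protein that binds Alox5, rose in E14.5 ERG/GATA1s by 0.80 ± 0.19 against WT (adjusted p = 0.0167) and by 0.77 ± 0.19 against ERG (adjusted p = 0.0259). The Pla2g4a call was lost without any 1 of 8 arrays, those of E12.5 GATA1s, E12.5 ERG, E14.5 ERG/GATA1s and E14.5 ERG (up to 0.286). For Pla2g4c the call against WT held without any 1 array, that against ERG was lost without the male-labelled E14.5 ERG array (-0.90, adjusted p = 0.0613), and that against GATA1s without any 1 array of the groups compared (up to 0.274). The Cotl1 calls were lost without either ERG/GATA1s array, the female-labelled WT array (up to 0.211 against WT, changes of 0.47 to 1.13) or either ERG array (up to 0.275 against ERG).

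Among transporters and enzymes that clear prostanoids, Abcc4, which exports prostaglandins, had 6.74 and 6.74 in E14.5 ERG/GATA1s, 6.05 and 6.22 in GATA1s, 6.95 and 6.82 in ERG, and 6.06 and 5.94 in WT. The 4 arrays with the transgene lay above the 4 without it. It rose in ERG against WT by 0.89 ± 0.13 (limma, adjusted p = 0.00351), in ERG/GATA1s against WT by 0.74 ± 0.13 (adjusted p = 0.00285) and against GATA1s by 0.61 ± 0.13 (adjusted p = 0.0315). Hpgd, which inactivates prostaglandins, fell in E14.5 ERG against WT (-0.99 ± 0.19, adjusted p = 0.0132). Ptgr1, which acts after it, fell in ERG (-0.94 ± 0.16, adjusted p = 0.0072) and in ERG/GATA1s (-1.03 ± 0.16, adjusted p = 0.000941) against WT. Mgst3, a membrane glutathione transferase, fell in ERG/GATA1s against WT (-0.85 ± 0.20, adjusted p = 0.0189). In ERG against WT the Abcc4 and Ptgr1 calls were lost without the female-labelled ERG array (adjusted p = 0.109 and 0.221), and that of Hpgd without the female-labelled array of ERG or WT (up to 0.351). In ERG/GATA1s against WT the Abcc4 and Ptgr1 calls held without any 1 array, and that of Mgst3 was lost without either ERG/GATA1s array or the female-labelled WT array (up to 0.128). Against GATA1s the Abcc4 call was lost without any 1 of the 6 arrays of E14.5 ERG/GATA1s, GATA1s and ERG (up to 0.332).

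Between the stages in WT, where the share of these genes called was near that of all units, the values of those called are given as a description. Mgst1, another glutathione transferase, had 6.63 and 8.01 at E14.5, against 5.08 and 4.77 at E12.5, a rise of 2.40 ± 0.36 (limma, adjusted p = 0.000806). Hpgd rose by 1.77 ± 0.19 (adjusted p = 8.81e-05), Pla2g4c by 0.98 ± 0.21 (adjusted p = 0.00716) and Ptgr1 by 0.92 ± 0.16 (adjusted p = 0.00163). Mgst2, which can also make leukotriene C4, rose by 0.87 ± 0.21 (adjusted p = 0.0119) and the epoxide hydrolase Ephx2 by 0.67 ± 0.19 (adjusted p = 0.0246). The prostaglandin E2 receptor Ptger2 fell (-0.44 ± 0.14, adjusted p = 0.0385), and so did the dipeptidase Dpep2 (-0.57 ± 0.17, adjusted p = 0.0307). Ptger2 was dim, with 3.48 and 3.55 at E14.5, against 3.95 and 3.95 at E12.5. The Mgst1, Hpgd and Ptgr1 calls held without any 1 array. That of Pla2g4c was lost without the female-labelled E14.5 WT or the male-labelled E12.5 WT array (up to 0.123), and that of Mgst2 without the female-labelled WT array of either stage (up to 0.134). The Ephx2 and Dpep2 calls were lost without the male-labelled E14.5 WT array or either E12.5 WT array (up to 0.307 and 0.281, with changes of 0.27 to 1.07 and -0.81 to -0.33), and that of Ptger2 without any 1 of 12 arrays, all but the E12.5 GATA1s and ERG/GATA1s ones (up to 0.153). The mean signal of 9 hepatoblast and hepatocyte genes was 10.16 and 10.90 in E14.5 WT, against 9.47 and 9.36 in E12.5 WT, with 8 of 9 called higher, where 18.2% of all units were called. Its part in these results was not tested.

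Marker genes of blood cells moved with several members, and in bulk tissue fewer cells of a type and less RNA per cell cannot be told apart. Of 14 megakaryocyte and platelet genes 10 were tested, with a mean signal on carrier arrays of 8.46 to 9.08 at E14.5, against 7.69 to 7.92 without the allele. The E12.5 means were 8.41 to 9.12 on carrier arrays, against 7.72 to 8.19 without the allele. Of the 1, 2, 3 and 4 arrays highest for this list, 0, 1, 2 and 3 were among the same number highest for Alox12. Of the 5, 6, 7 and 8 highest, 5, 5, 7 and 7 were. Tbxas1 signal was 6.05 to 6.58 on the carrier arrays, against 4.73 to 6.22 on those without the allele. In E14.5 ERG/GATA1s against ERG 8 of the 10 rose, in E14.5 ERG/GATA1s against WT 7, and in GATA1s against WT 6 at E14.5 and 8 at E12.5. Of all units 7.34%, 9.16%, 1.07% and 1.33% were called there in either direction. E12.5 ERG/GATA1s had 3 called higher against ERG and 0 against WT, where 1.05% and 0.00615% of all units were called. In E14.5 ERG against WT 1 rose and 4 fell, where 1.69% of all units were called. The part of this list in the Alox12, Tbxas1, Alox5ap and Ptgs2 results was not tested.

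**Figure D4:**
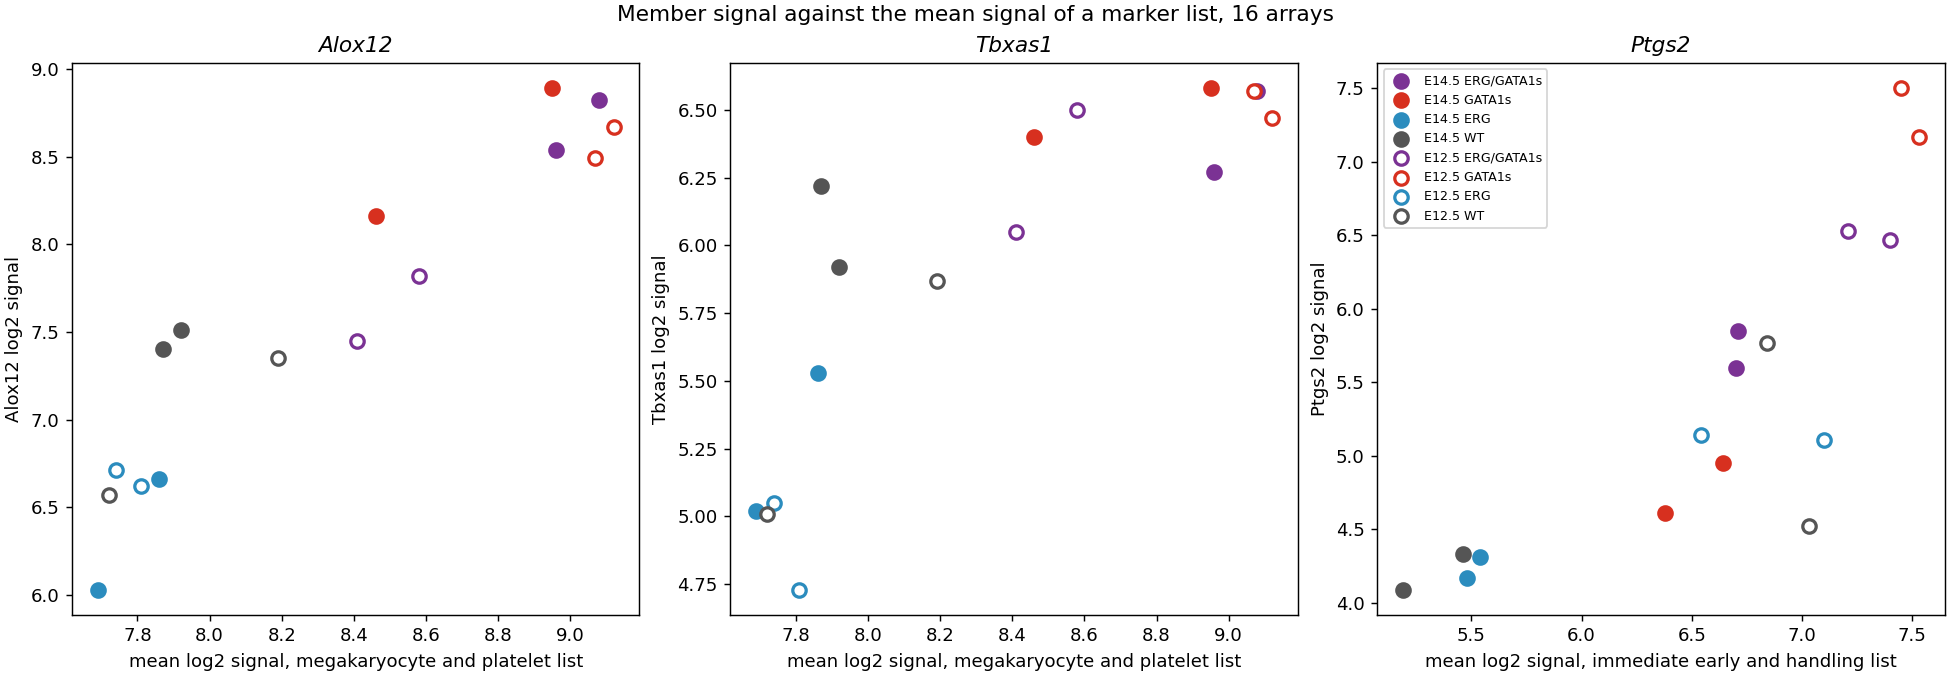
Log2 signal of Alox12 and Tbxas1 against the mean log2 signal of 10 megakaryocyte and platelet genes, and of Ptgs2 against the mean of 12 immediate early and handling genes, on the 16 arrays; filled points are E14.5 and open points E12.5. Carriers of GATA1s lie at the upper right of the first and second panels (list means 8.41 to 9.12), and Ptgs2 is highest in E12.5 GATA1s, where its list is highest (7.45 and 7.53).

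Immediate early genes, which respond within minutes to stimuli and to handling of cells, were higher in carriers of the allele at both stages, as was Ptgs2, itself a gene of that kind. At E14.5 their mean was 6.38 to 6.71 on carrier arrays, against 5.19 to 5.54 without the allele. At E12.5 it was 7.21 to 7.53 on carrier arrays, against 6.54 to 7.10 without the allele. In E14.5 ERG/GATA1s 9 of 12 rose against WT and 7 against ERG, and in E14.5 against E12.5 WT 10 of 12 fell. Of all units 4.47% and 3.6% were called higher in the first 2 of these, and 6.75% lower between the stages. In GATA1s against WT 1.07% of all units were called at E14.5 and 1.33% at E12.5. In E14.5 GATA1s against WT 6 of 12 rose (median change 1.07), and Ptgs2 was not called (0.57, limma, adjusted p = 0.384). In E12.5 GATA1s against WT 3 of 12 rose (median 0.32), and Ptgs2 had its largest rise of 2.19. For E14.5 ERG/GATA1s the list median was 1.34 against WT and 0.89 against ERG, where Ptgs2 rose by 1.52 and 1.49. For E12.5 ERG/GATA1s against ERG it was 0.50, where Ptgs2 rose by 1.38. The part of cell handling in the Ptgs2 results was not tested.

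Neutrophil and monocyte genes, 11 tested of 12, had a mean of 8.50 and 8.04 in E14.5 ERG/GATA1s, 7.35 and 7.97 in GATA1s, 6.46 and 6.62 in ERG, and 8.03 and 7.21 in WT. Like Alox5ap, they were lowest in ERG. In E14.5 ERG/GATA1s against ERG 9 of 11 rose, and in ERG against WT 4 fell and none rose, where Alox5 rose. Of all units 3.6% were called higher in the first comparison and 0.504% lower in the second. At E12.5 the mean was 8.33 to 8.63 on carrier arrays, against 7.39 to 8.07 without the allele, as with Alox5ap and the other members that were higher there. In E12.5 GATA1s against WT 11 of 11 were higher with 0 called by limma and 3 at an unadjusted p under 0.05, and in E12.5 ERG/GATA1s against ERG 1 was called higher. In the latter 0.474% of all units were called higher. Of 14 mast cell, basophil and eosinophil genes 7 were too dim to test, among them Ms4a2 and Fcer1a. Of the other 7, in E14.5 ERG against WT, 4 fell and none rose, with means of 4.75 and 4.90 in ERG, against 5.85 and 5.50 in WT, and in E14.5 against E12.5 WT, where Alox5 fell, 3 fell and none rose. Macrophage genes, 12 tested of 13, were 5.35 to 7.04 over all arrays, with 2 called lower and none higher in E14.5 ERG against WT. Of all units 0.504% were called lower in E14.5 ERG against WT and 6.75% in E14.5 against E12.5 WT. The part of these cells in the results was not tested. At E12.5 the hepatoblast and hepatocyte mean was 8.25 to 8.49 in carriers, against 8.96 to 9.60 without the allele, and its part in the E12.5 results was not tested. Erythroid genes, 10 tested of 11, had an E14.5 mean of 9.76 to 10.38 in carriers, against 10.40 to 10.76 without the allele. In E14.5 ERG/GATA1s 8 fell and 1 rose against WT, and 6 fell and 1 rose against ERG. Of all units 9.16% and 7.34% were called there in either direction. The E12.5 means overlapped, with 10.19 to 10.47 in carriers and 10.18 to 10.62 without the allele. The part of red cells in the results was not tested.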

How the data were processed

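The deposited table holds log2 signal per probe set, to 2 decimals. The authors computed it by RMA, which corrects background, normalizes between arrays and summarises probes, per the submitters' processing notes (no version given). Labelling used an Affymetrix whole-transcript kit, per the labels' protocols. No other background correction was tried, for want of scanner files here.

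The platform annotation pairs 21780 of 28270 probe sets with 1 symbol and 1617 with several; it names none for 4873. For each symbol the probe set of highest mean was used, and units above the 30th percentile (3.74) on at least 2 arrays were tested (15742 with 1 symbol, 516 with several). One limma 3.58.1 model in R 4.3.3 covered the 16 arrays: 8 group means plus labelled sex (7 residual degrees of freedom), eBayes, two-sided tests, Benjamini-Hochberg adjustment over 16258 units. The replicate block is labelled sex, since each group has 1 array of each; the labels name no shared litter or embryo. A fold is 2 to the power of the log2 change. The fits were tested on simulated data.

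Members, gene lists, marker lists and tests were chosen with earlier results of these data known. Named genes are the 9 members, pathway genes past the threshold in at least 1 comparison, and the 5 genes most correlated with each member whose group means span at least 1 on the log2 scale. The alternatives are given in the closing section.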

Additional observations from a re-analysis of the deposited data

How the results depend on the processing

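Of 120 member and comparison pairs 21 were called by limma, none changed sign under any alternative, and 6 stayed called without any 1 array. Further quantile normalization and the stricter filter (50th percentile, 4.84) kept all 21, eBayes with trend and robust 20, dropping the replicate block (no labelled sex term) 17, a Y-linked level in place of labelled sex 17, no filter 16, arrayWeights 16, centring arrays on their median 15, all probe sets 13, leaving out the 2 arrays with both Xist and Y-linked signal (added after seeing the data) 13, leaving out the 3 sex-discordant arrays 6 and fitting only the arrays compared 3. The last leaves few degrees of freedom. Counts of members called that moved by over 1.5 times follow. In E12.5 GATA1s against WT (4) they were 2 with centring, 1 with all probe sets, 0 with only the arrays compared, 0 without the 3 arrays and 0 without the 2. In E12.5 ERG/GATA1s against ERG (3) they were 5 with only the arrays compared and 0 with no filter, centring, no replicate block, arrayWeights, all probe sets or without the 3 arrays; against WT (0) they were 3 with only the arrays compared. In E14.5 ERG against WT (2) they were 1 with no filter, centring, the Y-linked level, trend and robust, all probe sets or without the 3 arrays, and 0 with only the arrays compared. In E14.5 ERG/GATA1s they were 0 against WT (4) and 0 against ERG (4) with only the arrays compared, 1 and 2 without the 3 arrays, and 3 against GATA1s (0) with arrayWeights and 1 without the 2 arrays. In E14.5 GATA1s against WT (0) quantile normalization gave 1. In WT, E14.5 against E12.5 (4) gave 0 with only the arrays compared, 2 with arrayWeights and 2 without the 2 arrays. The ERG effect between stages (0) gave 1 with the stricter filter and 1 with trend and robust, and the E14.5 interaction (0) gave 1 with quantile normalization and 1 with arrayWeights. Leaving out each array in turn gave 0 to 5 for E12.5 GATA1s against WT, 0 to 2 and 0 to 4 for E12.5 ERG/GATA1s against WT and ERG, 0 to 1, 1 to 3 and 3 to 4 for E14.5 GATA1s, ERG and ERG/GATA1s against WT, 2 to 4 and 0 to 1 for E14.5 ERG/GATA1s against ERG and GATA1s, 1 to 5 for the stages in WT, and 0 to 1 for the differences of the GATA1s and ERG effects between stages and the E14.5 interaction. The causes were not tested, beyond the arrays and units each alternative removes by construction. Of 26 pathway gene calls 6 held without any 1 array, 15 without the 2 arrays and 11 without the 3, with no change of sign. Signal levels moved by more than 1 SD in 11 of 128 values. The largest move was 0.152, below the residual SD of every member but Lta4h (0.131). Each member had 1 probe set, so other probe sets gave no value. Ltc4s, near the filter, is limited by its low signal. So are the pathway genes Cysltr1, Cyp4f18 (3.89 and 3.73 in E12.5 ERG) and Ptger2, near or below the filter level of 3.74.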
